A study of Mus musculus with 6 samples.

Results

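The immediate early factors described here are 10 genes, Egr1, the AP-1 genes Fos, Fosb, Fosl2, Jun, Junb and Jund, and the immediate early response genes Ier2, Ier3 and Ier5. They were taken by symbol from the deposited table, with transcripts summed per symbol, and all 10 of 10 were found among 35970 symbols, on 23 of 117486 transcripts. The libraries hold ribosome-bound, polyadenylated RNA from mouse liver, 1 library per mouse. In the Neurl1b CRISPRi group, 3 Fah-/-;dCas9+ mice received 10 µg of a transposon plasmid with a guide against Neurl1b, which also carries Fah and the ribosomal protein L10a fused to GFP. In the non-targeting group, 3 Fah-/-;dCas9+ mice received the same amount of the plasmid with a non-targeting guide. All 6 mice also received the virus AAV8.TBG.PI.Cre.rBG in the same tail vein injection, had been kept on 7.5 µg/mL nitisinone until then and lost the drug afterwards, and their livers were taken 4 weeks later.

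Fah is the last enzyme of tyrosine breakdown, so that without nitisinone hepatocytes that gained Fah from the plasmid repopulate the liver while the host's Fah-negative hepatocytes are lost. TBG is a hepatocyte promoter, and Cre was thereby directed to hepatocytes. dCas9 cannot cut and lowers transcription where its guide binds (CRISPR interference, CRISPRi). Anti-GFP pulled the tagged ribosomes out of lysate from 400 mg of liver, so that cells without the plasmid should contribute little. The labels name 1 plasmid per group and give no age or sex of the mice.

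Immediate early genes are transcribed within minutes of a growth factor, stress or injury signal, without new protein synthesis. Kinase cascades, above all those of ERK, JNK and p38, reach them through factors such as SRF with its ETS partners, and most of their mRNAs are short-lived. FOS and JUN proteins pair through leucine zippers to form AP-1, which binds DNA through an adjoining basic region. EGR1 is a zinc finger factor with its own set of targets. In the liver these genes are known for their induction after partial hepatectomy, as hepatocytes leave quiescence, and for their response to the handling of tissue.

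The results below differ among the 3 JUN genes and among the 3 FOS genes, so a stretch of high likeness is shown for each family. It is the coding stretch, compared without gaps, in which the other genes of the family are together most like Jun or Fos. For the JUN genes this is a coding stretch of 90 bases in the basic region. Jun lies on the minus strand of chromosome 4, Junb on the minus strand of chromosome 8 and Jund on the plus strand of chromosome 8, and capitals mark bases that are the same in all 3.
Jun: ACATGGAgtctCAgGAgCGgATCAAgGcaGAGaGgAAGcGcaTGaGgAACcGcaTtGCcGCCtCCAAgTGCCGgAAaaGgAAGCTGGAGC
Junb: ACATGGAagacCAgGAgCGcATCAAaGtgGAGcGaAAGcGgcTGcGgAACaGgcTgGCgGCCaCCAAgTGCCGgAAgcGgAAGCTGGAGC
Jund: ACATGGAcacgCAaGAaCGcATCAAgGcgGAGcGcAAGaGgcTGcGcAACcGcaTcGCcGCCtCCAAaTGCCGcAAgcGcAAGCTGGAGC
Of the 90 bases, 62 were the same in all 3 genes, and the longest unbroken run was 10 bases. For the FOS genes the stretch lies in the leucine zipper. Fos is on the plus strand of chromosome 12, Fosb on the minus strand of chromosome 7 and Fosl2 on the plus strand of chromosome 5, with capitals as before.
Fos: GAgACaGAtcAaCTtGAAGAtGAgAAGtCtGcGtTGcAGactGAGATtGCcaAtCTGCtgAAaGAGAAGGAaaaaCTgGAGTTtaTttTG
Fosb: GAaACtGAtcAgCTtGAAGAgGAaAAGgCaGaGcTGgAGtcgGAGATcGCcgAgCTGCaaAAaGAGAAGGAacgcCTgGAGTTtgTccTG
Fosl2: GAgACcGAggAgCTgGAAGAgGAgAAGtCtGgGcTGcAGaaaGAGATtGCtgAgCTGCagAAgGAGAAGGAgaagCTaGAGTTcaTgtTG
Here 58 of 90 bases were the same in all 3 genes, with a longest run of 8 bases. The sequences are from the GENCODE vM21 transcripts. Between the main transcripts of the 10 genes no word of 31 bases was shared on either strand. Jund shared 820 of its 1638 words with its antisense gene Gm11175, Jun shared 202 of 3159 with its antisense gene Junos, Ier5 shared 4 of 3246 with Ier5l, and Fosb shared 3 of 3493 with Gm44831 and Mobp. The labels name a NEBNext Ultra RNA kit, and the counting is not stated to use strand. Without strand, reads within the words shared by Jund and Gm11175, or by Jun and Junos, cannot be told apart.

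The unit is TPM, which is corrected for the length of each transcript, so that levels of different genes can be compared. TPM keep no depth, and the number of reads behind a value is unknown. Each library had signal for between 17813 and 18680 genes. Hepatocyte markers fixed as a list of 9 genes, among them Alb and Ttr, were all detected and summed to between 33150 and 47826 TPM in the Neurl1b CRISPRi mice and between 37298 and 90325 TPM in the non-targeting mice. Neurl1b itself was at 0.295, 0.351 and 0.307 TPM in the Neurl1b CRISPRi mice, against 1.22, 0.897 and 0.688 TPM in the non-targeting mice, with no overlap. Being below the filter used here, it was tested in a fit without one, where limma gave a log2 fold change of -0.55 (adjusted p = 0.430). Non-targeting mouse 1 was closer to the Neurl1b CRISPRi libraries than to the other controls. Over the 10598 genes tested, the log2 values of its library correlated at 0.982 to 0.987 with the 3 Neurl1b CRISPRi libraries and at 0.965 and 0.974 with those of non-targeting mice 2 and 3. Those of mice 2 and 3 correlated at 0.978 with each other and at 0.950 to 0.976 with the Neurl1b CRISPRi libraries. Results are therefore also given without non-targeting mouse 1.

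The comparison asks how the ribosome-bound mRNA of the immediate early factors differs when Neurl1b, an E3 ubiquitin ligase gene of the Notch pathway, is repressed. Egr1 and Ier2 were lower in the Neurl1b CRISPRi mice than in every non-targeting mouse, with 27.1% and 60.9% of the mean TPM of the non-targeting mice. Jund was higher than in every non-targeting mouse, at 1.59 times the mean. Fosl2 and Jun had higher means in the Neurl1b CRISPRi mice, with overlapping groups, and Junb, Fos, Fosb, Ier3 and Ier5 also overlapped. Each gene was tested on log2(TPM + 1) with limma in 1 fit over the 10598 genes whose mean reached 1 TPM, and p-values were adjusted over all of them (Benjamini-Hochberg). None of the 10 genes passed an adjusted p of 0.05 in limma with all 6 mice, where 0.0189% of tested genes did. At an unadjusted p below 0.05 there were 2 of the 8 tested members on the lower side, Egr1 and Ier2, against 3.19% of all tested genes, and 2 on the higher side, Jund and Fosl2, against 10.1%. In either direction that is 4 of 8 members, against 13.3% of all tested genes. These counts carry no test, as the members were chosen with earlier results of these data known.

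**Figure D1:**
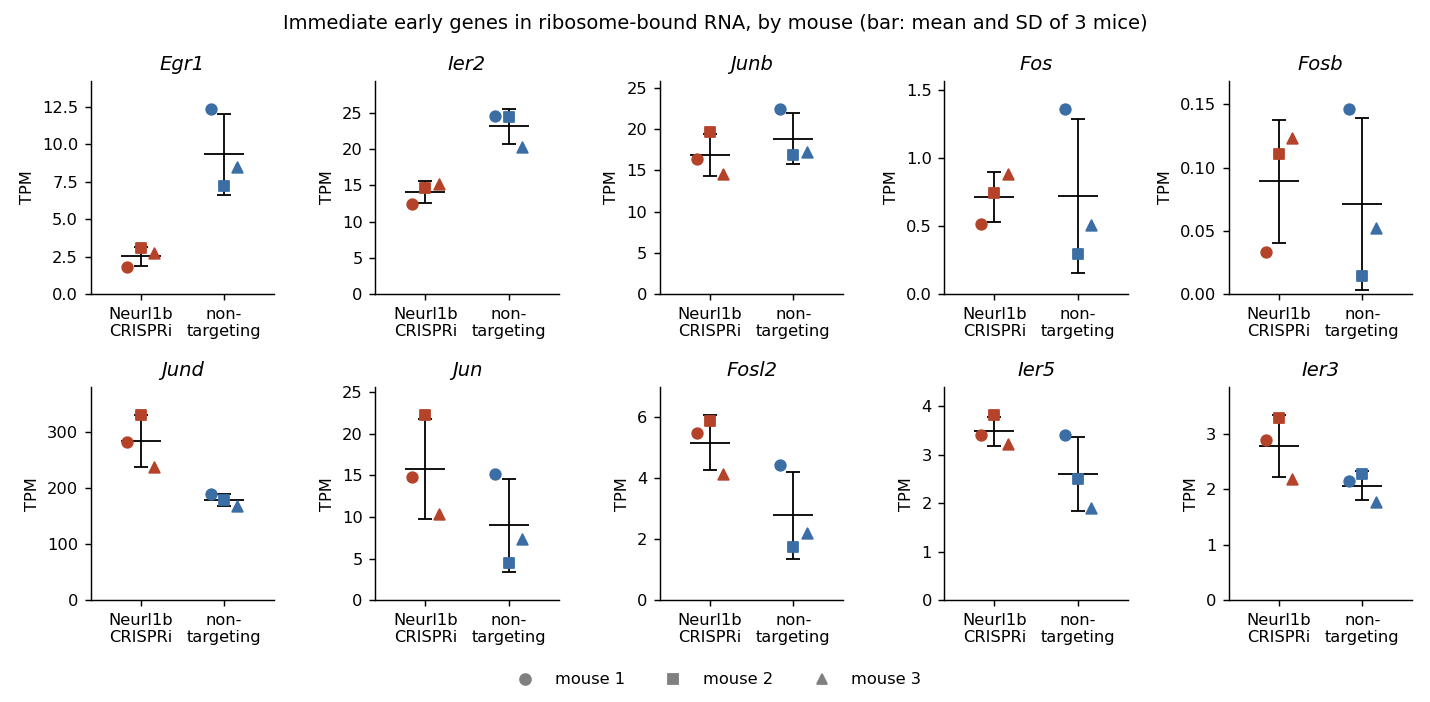
TPM of each of the 10 genes in every mouse (y axis, linear, from 0), with Neurl1b CRISPRi mice in red on the left and non-targeting mice in blue on the right of each panel. Symbols give the mouse number, and the bars show the mean and SD of 3 mice. All Neurl1b CRISPRi mice lie below all non-targeting mice for Egr1 and Ier2 and above them for Jund.

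Egr1, which encodes a zinc finger transcription factor induced by growth factors, was at 1.81, 3.05 and 2.72 TPM in the Neurl1b CRISPRi mice, against 12.4, 7.19 and 8.46 TPM in the non-targeting mice. The highest Neurl1b CRISPRi mouse was thus below the lowest non-targeting mouse, while the non-targeting mice themselves spread more widely. The means were 2.53 ± 0.646 TPM in Neurl1b CRISPRi mice and 9.34 ± 2.69 TPM in non-targeting mice (SD, n = 3 each), 3.69-fold lower with Neurl1b CRISPRi. On the log2(TPM + 1) scale the fold change was -1.54 with an SE of 0.24, and limma gave an adjusted p of 0.216 and an unadjusted p of 1.66e-04, the fifth smallest among genes with lower values. Both Egr1 transcripts in the table are protein-coding and both were lower without overlap. The main one, ENSMUST00000165033.2, was at 1.73, 2.91 and 2.53 TPM with Neurl1b CRISPRi, against 11.6, 6.60 and 7.64 TPM with the non-targeting guide. Groups that do not overlap on the lower side were found for 4.57% of all tested genes. The exact two-sided permutation test of Egr1 gave p = 0.1, as low as 3 mice against 3 can reach.

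Ier2, a response gene whose protein acts in the nucleus, had 12.4, 14.6 and 15.2 TPM in the Neurl1b CRISPRi mice, against 24.6, 24.5 and 20.4 TPM in the non-targeting mice. The 2 groups are compact and do not overlap. The means were 14.1 ± 1.47 TPM in Neurl1b CRISPRi mice and 23.2 ± 2.42 TPM in non-targeting mice (SD, n = 3 each). The log2 fold change of -0.68 (SE 0.17) had a limma adjusted p of 0.310 and an unadjusted p of 0.00366, with an exact two-sided permutation p of 0.1. The table holds 1 Ier2 transcript, so no division among isoforms enters its value.

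Both other IER genes differed from Ier2 in the direction of their means. Ier3, also known as IEX-1 and linked to cell survival, had 2.89, 3.28 and 2.18 TPM in the Neurl1b CRISPRi mice, against 2.14, 2.27 and 1.77 TPM in the non-targeting mice. Ier5, whose human protein modulates heat shock factor 1, had 3.40, 3.82 and 3.22 TPM in the Neurl1b CRISPRi mice, against 3.41, 2.49 and 1.89 TPM in the non-targeting mice. For both genes the groups overlap, by 1 Neurl1b CRISPRi mouse for Ier3 and by non-targeting mouse 1 for Ier5. Their log2 fold changes were 0.30 and 0.34, with limma adjusted p of 0.449 and 0.443.

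Among the JUN genes, Jund, which is expressed in most resting cells, had 282, 329 and 238 TPM in the Neurl1b CRISPRi mice, against 189, 178 and 168 TPM in the non-targeting mice. The groups do not overlap, a trait that 12.5% of all tested genes share on the higher side. The means were 283 ± 45.9 TPM in Neurl1b CRISPRi mice and 178 ± 10.3 TPM in non-targeting mice (SD, n = 3 each), and the Neurl1b CRISPRi mice had the wider spread. The log2 fold change of 0.65 (SE 0.17) had a limma adjusted p of 0.310 and an unadjusted p of 0.00396, and the exact two-sided permutation p was 0.1.

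Jun, the inducible partner of FOS and a factor that hepatocytes need for efficient regeneration in mice, had 14.8, 22.3 and 10.4 TPM in the Neurl1b CRISPRi mice, against 15.2, 4.47 and 7.32 TPM in the non-targeting mice. Non-targeting mouse 1 lies among the Neurl1b CRISPRi mice, and the other controls lie below all of them. The log2 fold change was 0.84 with an SE of 0.41 (limma adjusted p = 0.396), the largest SE of the 10 genes. Junb, a JUN protein that can restrain JUN, had 16.4, 19.7 and 14.5 TPM in the Neurl1b CRISPRi mice, against 22.5, 16.9 and 17.2 TPM in the non-targeting mice. Those groups overlap, and limma gave a log2 fold change of -0.15 with an SE of 0.19 (adjusted p = 0.681).

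Among the FOS genes, Fosl2, which encodes the longer-lived FRA2, had 5.46, 5.86 and 4.13 TPM in the Neurl1b CRISPRi mice, against 4.40, 1.75 and 2.20 TPM in the non-targeting mice. As for Jun, non-targeting mouse 1 lies within the Neurl1b CRISPRi range and the other controls below it. Limma gave a log2 fold change of 0.75 with an SE of 0.27 (adjusted p = 0.344, unadjusted p = 0.0228). Of the summed Fosl2 signal, 54.6% was on the protein-coding transcript, which was at 2.95, 3.21 and 2.55 TPM in the Neurl1b CRISPRi mice, against 2.37, 0.890 and 1.02 TPM in the non-targeting mice, without overlap. A further 44.7% was on a transcript annotated as a retained intron, whose groups overlap.

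Fos and Fosb, the most transient of the family, were the lowest of the 10 genes and did not pass the filter of a mean TPM of 1. Fos was at 0.515, 0.747 and 0.880 TPM in the Neurl1b CRISPRi mice, against 1.36, 0.293 and 0.511 TPM in the non-targeting mice. The non-targeting mice lie on both sides of the Neurl1b CRISPRi mice, and the means were 0.714 TPM in Neurl1b CRISPRi mice and 0.722 TPM in non-targeting mice. Fosb was at 0.0334, 0.111 and 0.123 TPM in the Neurl1b CRISPRi mice, against 0.146, 0.0143 and 0.0522 TPM in the non-targeting mice, levels whose precision is unknown. In the fit without the filter, over 21941 genes, their log2 fold changes were 0.04 and 0.03, with limma adjusted p of 0.954 and 0.850.

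**Figure D2:**
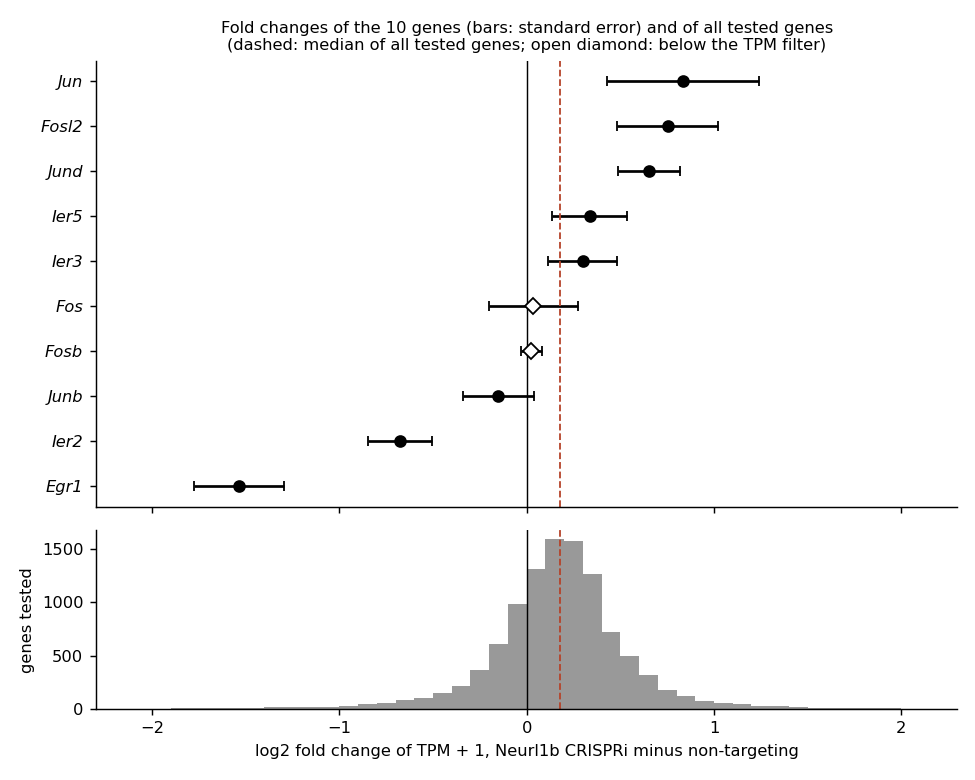
Upper panel: log2 fold change of TPM + 1, Neurl1b CRISPRi minus non-targeting, for the 10 genes with standard errors from limma. Fos and Fosb, below the TPM filter, are open diamonds. Lower panel: number of tested genes by log2 fold change in bins. Egr1 at -1.54 and Ier2 at -0.68 lie far left of the median of all tested genes, 0.18 (dashed), and Jun, Fosl2 and Jund lie right of it.

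The fold changes have to be read against a general shift, since 74% of all tested genes had a log2 fold change above 0, with a median of 0.18. Scaling the libraries by median-of-ratios brought that median to -0.02. With this scaling Egr1 had a log2 fold change of -1.72 (limma adjusted p = 0.0702) and Ier2 one of -0.90 (limma adjusted p = 0.216), both further from 0. Jund had one of 0.42, with a narrow gap between the groups, its scaled values being 253, 299 and 226 in the Neurl1b CRISPRi mice, against 170.0, 214 and 198 in the non-targeting mice. Junb had one of -0.38 (limma adjusted p = 0.342), and its groups no longer overlapped, with scaled values of 14.8, 17.8 and 13.8 in the Neurl1b CRISPRi mice, against 20.3, 20.3 and 20.2 in the non-targeting mice. Under this scaling 10.8% of all tested genes were lower without overlap and 7.76% higher. At an unadjusted p below 0.05 the members were Egr1, Ier2 and Junb on the lower side, against 7.56% of all tested genes, and Jund and Fosl2 on the higher side, against 5.6%.

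Since the levels are per length, the 10 genes can also be ordered by TPM. In the Neurl1b CRISPRi mice the order of mean TPM was Jund, Junb, Jun, Ier2, Fosl2, Ier5, Ier3, Egr1, Fos and Fosb. In the non-targeting mice it was Jund, Ier2, Junb, Egr1, Jun, Fosl2, Ier5, Ier3, Fos and Fosb. Jund stood clear of the next gene in both groups. Egr1 ranked 8 in Neurl1b CRISPRi mice, where its values overlapped with those of Ier3 above it, and 4 in non-targeting mice, where they overlapped with those of Jun below it. The other neighbours whose mice overlapped were Junb and Jun, Jun and Ier2, and Ier5 and Ier3 in the Neurl1b CRISPRi mice, and Ier2 and Junb, Fosl2 and Ier5, and Ier5 and Ier3 in the non-targeting mice.

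Ratios of 2 genes within a library do not depend on how libraries are scaled, and 6 were computed. Jund exceeded Egr1 by 156, 108 and 87.3 times in the Neurl1b CRISPRi mice, against 15.3, 24.8 and 19.8 times in the non-targeting mice. Jund exceeded Ier2 by 22.7, 22.5 and 15.6 times in the Neurl1b CRISPRi mice, against 7.66, 7.28 and 8.24 times in the non-targeting mice. Egr1 was at 0.145, 0.209 and 0.179 of the Ier2 level in the Neurl1b CRISPRi mice, against 0.502, 0.294 and 0.416 in the non-targeting mice. These 3 ratios do not overlap between the groups. Nor did Egr1 to Fos, at 3.51, 4.09 and 3.09 in the Neurl1b CRISPRi mice, against 9.07, 24.6 and 16.6 in the non-targeting mice. Jun to Junb was at 0.902, 1.13 and 0.716 in the Neurl1b CRISPRi mice, against 0.676, 0.264 and 0.426 in the non-targeting mice, without overlap. Jund to Fosl2 did overlap, at 51.6, 56.3 and 57.5 in the Neurl1b CRISPRi mice, against 42.8, 102 and 76.3 in the non-targeting mice. For Jund to Egr1 and Jund to Ier2 the lack of overlap follows from the single genes, which did not overlap in opposite directions. How often ratios of other gene pairs do not overlap was not computed. As the genes were chosen with earlier results of these data known, the ratios carry no test. Within the JUN family, Jund made up between 88.7% and 90.5% of the summed TPM in the Neurl1b CRISPRi mice, against 83.4% to 89.3% in the non-targeting mice, and these shares overlap. The share of Junb did not overlap, with 5.24%, 5.29% and 5.53% in the Neurl1b CRISPRi mice, against 9.93%, 8.48% and 8.93% in the non-targeting mice. As Jund makes up most of this sum, the share of Junb falls where Jund rises. The TPM of Junb itself overlapped between the groups, so its share is no separate result for Junb.

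Calls among the 10 genes appeared when 1 mouse was left out. Non-targeting mouse 1 was the highest of its group for 9 of the 10 genes, all but Ier3, and for 67.9% of all tested genes. Non-targeting mouse 1 was singled out by its values, as the control most like the Neurl1b CRISPRi libraries. Leaving out such a control tends to widen the contrast over all genes, so the calls without it are a description. Without this mouse 5 of the 8 tested members passed an adjusted p of 0.05 in limma, while calls over all genes rose from 2 to 2673. Egr1 and Ier2 were lower, with log2 fold changes of -1.34 and -0.63 (limma adjusted p = 0.0174 and 0.0319), where 2.24% of all tested genes were called lower. Jund, Fosl2 and Jun were higher, with 0.69, 1.04 and 1.26 (limma adjusted p = 0.0337, 0.0199 and 0.0447), where 23.1% were called higher. With median-of-ratios scaling as well, Egr1 and Ier2 passed (limma adjusted p = 0.0296 and 0.0403, against 3.39% of all tested genes called lower), and Jund, Fosl2 and Jun did not (limma adjusted p = 0.209, 0.0524 and 0.126, against 2.02% called higher). Leaving out any other single mouse gave no call among the 10 genes, and the log2 fold change of Egr1 then lay between -1.69 and -1.38.

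**Figure D3:**
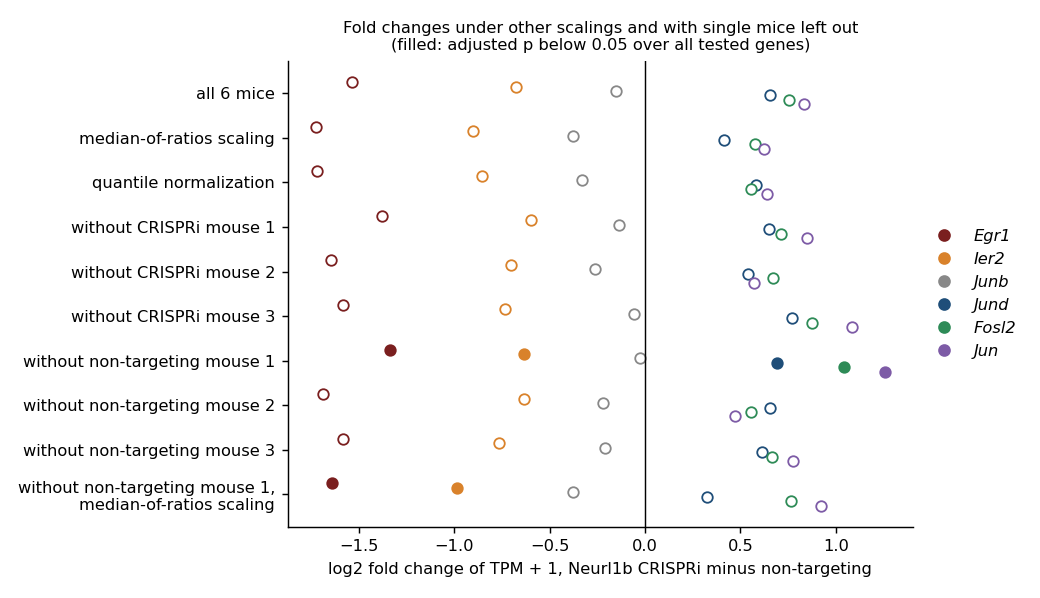
Log2 fold change of TPM + 1, Neurl1b CRISPRi minus non-targeting (x axis), for 6 of the genes under other scalings and with each mouse left out (rows). Filled points passed an adjusted p of 0.05 over all tested genes in limma. Egr1 and Ier2 stay left of 0 in every row shown and Jund, Fosl2 and Jun right of it, and filled points occur where non-targeting mouse 1 is left out.

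Other genes of the pathway are given as lists, each to be read against all tested genes, of which 74% had a log2 fold change above 0 and, at an unadjusted p below 0.05, 10.1% were higher and 3.19% lower. Those last shares became 5.6% and 7.56% after median-of-ratios scaling. Of 46 tested genes in a list of other immediate early genes, 38 had a log2 fold change above 0. The list's median was 0.42, beside 0.18 for all tested genes, and 0.23 with median-of-ratios scaling, beside -0.02. At an unadjusted p below 0.05 there were 10 of the 46 higher and 0 lower, and none passed over all genes in limma. The MAP kinase phosphatase gene Dusp1 had 12.2, 10.0 and 13.2 TPM in the Neurl1b CRISPRi mice, against 8.35, 3.71 and 4.35 TPM in the non-targeting mice, with no overlap and a log2 fold change of 1.04 (limma adjusted p = 0.310). Cebpd, a C/EBP factor gene of the acute phase, had 3.44, 3.62 and 3.31 TPM in the Neurl1b CRISPRi mice, against 2.35, 1.44 and 2.26 TPM in the non-targeting mice. The matricellular gene Ccn2 had a mean of 1.38 TPM in Neurl1b CRISPRi mice and 0.626 TPM in non-targeting mice, and Maff, a small MAF factor gene, one of 15.5 TPM in Neurl1b CRISPRi mice and 7.53 TPM in non-targeting mice. For all 4, named for the smallest p in the list, the groups do not overlap. In the whole list 8 of the 46 were higher without overlap and 0 lower, beside 12.5% and 4.57% of all tested genes. Without non-targeting mouse 1, 16 of the 46 passed as higher and 0 as lower in limma, where 23.1% of all tested genes passed as higher and 2.24% as lower.

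Among partners and relatives, 10 of 11 tested bZIP genes that pair or compete with FOS and JUN were above 0, beside 74% of all tested genes. At an unadjusted p below 0.05 there were 3 higher and 0 lower, beside 10.1% and 3.19% of all tested genes, and none passed over all genes in limma. The median was 0.31, beside 0.18 for all tested genes, and 0.11 with median-of-ratios scaling, beside -0.02. The 3 higher genes were Maff, Mafk and Mafg, the small MAF genes, with log2 fold changes of 1.05, 0.71 and 0.60. Maff stands in both this list and that of other immediate early genes. Creb1, a CRE-binding factor gene, had 0.33. Of the NAB corepressors, which bind EGR proteins and of which Nab2 is an EGR1 target, Nab2 had 7.57, 4.93 and 4.51 TPM in the Neurl1b CRISPRi mice, against 8.70, 13.6 and 5.32 TPM in the non-targeting mice. Those groups overlap, and the log2 fold change was -0.56 (limma adjusted p = 0.430), while that of Nab1 was 0.32.

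Upstream of these genes, 5 of 6 tested genes in a list of SRF, its cofactors and the related MEF2 factors were above 0, beside 74% of all tested genes, and none was called in limma. The 1 gene higher at an unadjusted p below 0.05 was Mef2d, with a log2 fold change of 0.74, a MADS-box factor that is neither SRF nor one of its cofactors. Mef2a had 0.31, and the SRF cofactor genes Mrtfa and Mrtfb had 0.28 and 0.38. Of 23 receptors and kinases of the ERK, JNK and p38 cascades, 20 were above 0, with 4 higher and 0 lower at an unadjusted p below 0.05, beside 10.1% and 3.19% of all tested genes, and none called in limma. The 4 were Mapkapk2, a kinase downstream of p38, with 0.58, the ERK effector kinase gene Rps6ka1 with 0.47, Mapk3 for ERK1 with 0.55 and Mapk9 for JNK2 with 0.49. The medians were 0.30 for the SRF list and 0.25 for the receptors and kinases, beside 0.18 for all tested genes. With median-of-ratios scaling they were 0.15 and 0.04, beside -0.02.

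Among 17 tested genes known as targets of AP-1 or EGR1, 14 were above 0, beside 74% of all tested genes. At an unadjusted p below 0.05 there were 7 higher and 0 lower, beside 10.1% and 3.19% of all tested genes, and none was called in limma. The list's median was 0.35, or 0.19 with median-of-ratios scaling. Odc1, the first enzyme of polyamine synthesis, had 104, 109 and 118 TPM in the Neurl1b CRISPRi mice, against 85.7, 65.9 and 68.7 TPM in the non-targeting mice, with no overlap (log2 fold change 0.59, limma adjusted p = 0.323). Vim, for vimentin, which stellate cells also express, had 14.1, 11.2 and 16.3 TPM in the Neurl1b CRISPRi mice, against 9.16, 7.07 and 9.68 TPM in the non-targeting mice. The heme oxygenase gene Hmox1 had 154, 154 and 121 TPM in the Neurl1b CRISPRi mice, against 125, 13.5 and 31.6 TPM in the non-targeting mice, and non-targeting mouse 1 again lies with the Neurl1b CRISPRi mice. Plaur, the urokinase receptor gene, showed the same arrangement, with 2.76 TPM in non-targeting mouse 1 and 2.76 to 4.44 TPM in the Neurl1b CRISPRi mice. Heat shock genes, which like immediate early genes can rise while tissue is handled, were above 0 in 7 of 7 tested, with 0 in either direction at an unadjusted p below 0.05 in limma and a median of 0.24, or of -5.05e-04 once scaled by median-of-ratios. Hspa8, Hsph1, Hspb1 and Dnajb1 had log2 fold changes of 0.25, 0.41, 0.91 and 0.18.

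**Figure D4:**
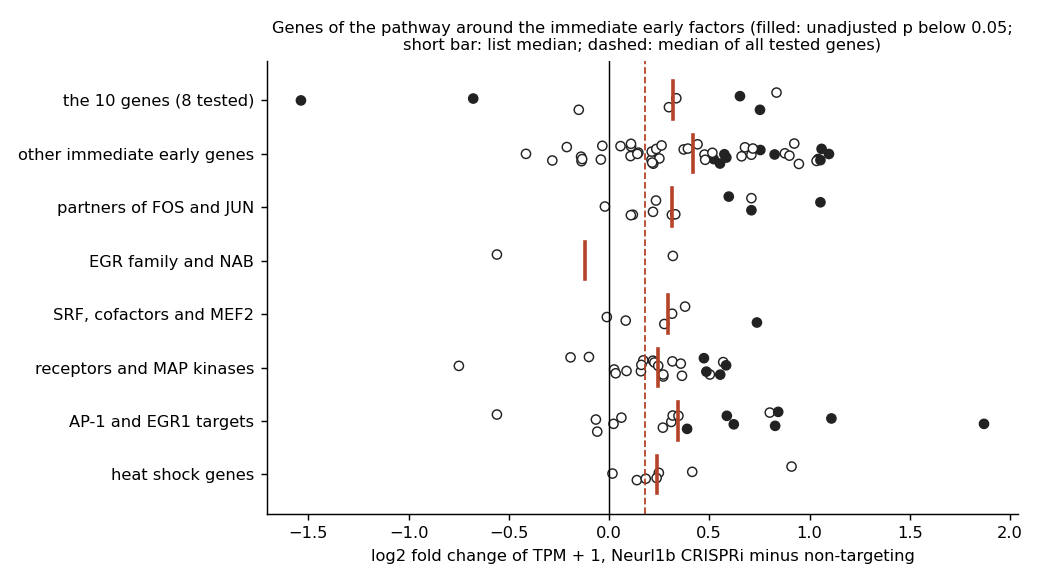
Log2 fold change of TPM + 1, Neurl1b CRISPRi minus non-targeting (x axis), for each tested gene of 8 lists around the immediate early factors (rows; vertical jitter is arbitrary). Filled points had an unadjusted p below 0.05 in limma, short red bars are list medians, and the dashed line is the median of all tested genes, 0.18. Egr1 at -1.54 is the leftmost point shown, and the filled points of the other lists lie right of 0.

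Immediate early genes are also expressed by other liver cells, so markers of those cells are given beside these values. Stellate cell and fibroblast markers, 6 of 10 of them with a mean TPM of at least 1, summed to between 34.6 and 47.6 TPM in the Neurl1b CRISPRi mice and between 13.8 and 29.1 TPM in the non-targeting mice, without overlap. Kupffer cell and macrophage markers, 9 of 11, summed to between 119 and 173 TPM in the Neurl1b CRISPRi mice and between 78.7 and 148 TPM in the non-targeting mice, and endothelial markers, 4 of 9, to between 18.7 and 28.2 TPM in Neurl1b CRISPRi mice and between 18.2 and 24.8 TPM in non-targeting mice. Biliary markers, 4 of 6, summed to between 21.2 and 27.9 TPM in Neurl1b CRISPRi mice and between 19.8 and 31.6 TPM in non-targeting mice. Lymphocyte and neutrophil markers, 2 of 12, summed to between 4.31 and 15.8 TPM in Neurl1b CRISPRi mice and between 8.73 and 52.0 TPM in non-targeting mice. Of the tested markers, 6 of 6 of stellate cells and fibroblasts and 9 of 9 of macrophages had a log2 fold change above 0, beside 74% of all tested genes. At an unadjusted p below 0.05 in limma, 4 and 3 of them were higher and 0 lower, beside 10.1% and 3.19%. Endothelial markers were above 0 in 3 of 4, biliary ones in 1 of 4, and lymphocyte and neutrophil ones in 0 of 2. Of the hepatocyte markers 4 of 9 were above 0, with 1 lower and 0 higher at an unadjusted p below 0.05 in limma. Their median log2 fold change was -0.39, beside 0.18 for all tested genes, and -0.63 with median-of-ratios scaling, beside -0.02. No marker in these lists was at 0 in all 6 libraries. The part of the other liver cells in the values of Jund, Jun and Fosl2, or of Egr1 and Ier2, was not tested. Fewer cells of a type and less RNA per cell cannot be told apart in such libraries.

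The genes most like each member over the 6 libraries were looked up among 6965 genes whose mean reached 5 TPM, by Pearson's r of log2(TPM + 1). With so many candidates and 6 libraries a high r is easily found, so these are descriptions. For Egr1 they were Gpx7 (r = 0.973), a glutathione peroxidase family gene, and Kif22 (r = 0.967), a mitotic kinesin gene. Kif22 was at 5.07, 5.19 and 6.33 TPM in the Neurl1b CRISPRi mice, against 12.9, 9.46 and 9.17 TPM in the non-targeting mice. For Ier2 they were Grtp1 and Haao (r = 0.988 and 0.982), for Jund Tmem51 and Stx4a (r = 0.991 and 0.987), and for Fosl2 Fkbp1a and Gm49591 (r = 0.999 and 0.998). Jun was most like Paqr7 and Atp6ap2 (r = 0.997 and 0.994) and Junb most like Slc16a1 and Actl6a (r = 0.996 and 0.978). Ier3 was most like Nsd1 and Zfp637 (r = 0.980 and 0.977) and Ier5 most like Preb and Snx11 (r = 0.996 and 0.995). No gene appeared for more than 1 member.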

How the data were processed

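Per the submitters' processing notes, the authors used kallisto, a pseudoaligner, and the build mm39; version, transcript set and filters are not given in the sources used. The deposited values are TPM per transcript, 1 column per mouse, each summing to 1000000 within 1 TPM. They keep no depth, so no counting interval is given. As shares of a total, they shift when abundant genes change.

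Transcripts were summed per symbol, and 168 transcripts without a symbol were left out. Genes whose mean reached 1 TPM were tested on log2(TPM + 1), which understates changes of low genes, with limma 3.58.1 in R 4.3.3 (trended prior, no covariate, two-sided, Benjamini-Hochberg); Fos and Fosb came from the fit without the filter. The code was tested on simulated data. GENCODE vM21 (GRCm38), another build than mm39, served for transcript types, overlaps and coding sequence, and no coordinates are given. Egr1 sequence is not shown. Mice were grouped by title, and p-values measure the spread between mice.

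The members, lists and alternatives were chosen with earlier results of these data known. Named are all members, up to 4 genes per pathway list with the smallest p, and the 2 genes most like each tested member; the genes named under other observations were chosen after their values were seen. Alternatives were other pseudocounts, filters, scalings and priors, the mouse number as a block, single transcripts, and each mouse left out.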

Additional observations from a re-analysis of the deposited data

How the results depend on the processing

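Under the alternatives run, the log2 fold change stayed below 0 for Egr1, Ier2 and Junb and above 0 for Jund and Jun (17 alternatives each), and above 0 for Fosl2, Ier3 and Ier5 (16 each). Egr1 ranged from -1.84 to -0.92 and Ier2 from -0.99 to -0.56, both ends for Egr1 and the upper end for Ier2 being set by the pseudocount. The number of members at an unadjusted p below 0.05 on the lower side was 2 or 3 throughout, and on the higher side 1 with a mean TPM of at least 5, where Fosl2 is not tested. Leaving out single mice gave 1 to 4 on the higher side and 2 on the lower side. Fos changed sign to -0.0325 with median-of-ratios scaling and -0.0542 with quantile normalization; with single mice left out it ranged from -0.146 to 0.289 and Fosb from -0.0130 to 0.0753. The cause was not tested.

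Over all genes limma called 2 with all 6 mice, 0 with a pseudocount of 5, with no filter, with quantile normalization or with transcripts tested singly, 1 with a mean TPM of at least 5, 0 to 2673 with single mice left out, and 570 when median-of-ratios scaling was combined with leaving out non-targeting mouse 1. At an unadjusted p below 0.05 the counts were 1408 with all 6 mice, 1404 with a pseudocount of 5, 1403 with quantile normalization, 1937 with single transcripts, 2132 with no filter, 922 with a mean TPM of at least 5, 581 to 4665 with single mice left out, and 3224 for that combination. Same-numbered mice did not deviate together from their group means (r = 0.061, -0.096 and -0.277 over genes). No Neurl1b CRISPRi mouse correlated best with its own number. Deviations from the mean of so small a group are tied to each other, so these values cannot decide whether the numbers pair the mice. The mouse number as a replicate block gave 2 called genes and 1486 at an unadjusted p below 0.05, and it called none of the 8 tested members. Since TPM keep no depth, the precision of Fos and Fosb cannot be given.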

Other observations

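The other EGR genes lay below the filter of a mean TPM of 1. Egr2, which encodes a zinc finger factor of the same family, was at 0.401, 0.402 and 0.135 TPM in the Neurl1b CRISPRi mice, against 0.0554, 0.0778 and 0.0888 TPM in the non-targeting mice. Its groups did not overlap, in the direction opposite to Egr1. Egr3 was at 0.0301, 0.0356 and 0.0541 TPM in the Neurl1b CRISPRi mice, against 0.138, 0.00643 and 0.0176 TPM in the non-targeting mice, and those groups overlap. Fosl1, the FOS gene outside the set, was at 0.728, 0.776 and 0.557 TPM in the Neurl1b CRISPRi mice, against 0.666, 0.0149 and 0.0292 TPM in the non-targeting mice, where mouse 1 lies among the Neurl1b CRISPRi mice. With no depth, no error can be set on such low levels.

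Egfr, the receptor of EGF-like ligands that feed the ERK cascade, was at 5.90, 6.31 and 3.63 TPM in the Neurl1b CRISPRi mice, against 6.49, 17.2 and 7.13 TPM in the non-targeting mice. The groups did not overlap, by a narrow gap, as was so on the lower side for 4.57% of all tested genes. Non-targeting mouse 2 lay far above the other controls. Limma gave a log2 fold change of -0.75 with an SE of 0.35 (adjusted p = 0.394). Srf, the factor through which ERK signals reach Egr1 and Fos, was at 7.43, 9.34 and 7.05 TPM in the Neurl1b CRISPRi mice, against 10.3, 7.74 and 6.25 TPM in the non-targeting mice, with overlapping groups and a log2 fold change of -0.01.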
